A study of Mus musculus with 18 samples.

Results

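Six2, Six4, Eya1, Eya2, Eya3 and Eya4, the Six-family homeobox genes Six2 and Six4 with the 4 Eya cofactor genes, were followed in cultured mouse muscle stem cells (MuSCs) and in their differentiating progeny. They were taken by symbol, 6 of the 20612 genes in the expression table, and each was found on a single gene row. The donors were semi-cloned (SC) mice aged 4 months (strain label C57BL/6), which are made by injecting haploid embryonic stem cells into oocytes. DSMD-QKO mice (QKO) carried heterozygous mutations of Dmpk, Six5, Mbnl1 and Dmwd, DSM-TKO mice (TKO) carried heterozygous mutations of Dmpk, Six5 and Mbnl1, and WT mice carried none of these. All 3 genotypes, WT included, derive from the O48 haploid line, in which the imprinting control regions H19-DMR and IG-DMR are deleted. Each mutant genotype is thus a model made from edited clones of a single cell line, and the study set the mutants up as models of myotonic dystrophy type 1. MuSCs grown in T cell conditional medium were collected as day 0, and cells kept in differentiation medium were collected after 1 or 2 days, with 2 libraries for each of the 9 groups of genotype and day. The labels do not say whether the libraries of a group came from separate animals or cultures, so every p-value below reads against a spread that may be no more than technical.

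The proteins of the Six-family genes are homeodomain transcription factors that bind a DNA element called MEF3, which is found at the promoters of muscle genes such as Myog, the gene of the differentiation factor myogenin. Eya proteins do not bind DNA themselves. They join Six-family proteins at the gene as coactivators, and they also carry a tyrosine phosphatase activity. In skeletal muscle the Six-family and Eya genes are known for their part in setting up the myogenic cells of the embryo and in the fast fibre programme of the adult.

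Values are RPKM, reads per kilobase of transcript scaled to the mapped reads of the library, so levels can be set side by side between genes. The RPKM steps gave back whole reads and showed a depth of 34.8 to 60.7 M reads per library. Myogenic marker genes were present in every library, with Myod1 at 342 to 1009 RPKM and Des at 274 to 1732 RPKM, and the lists of other cell types gave a mixed picture. The 4 endothelial markers summed to at most 2.02 RPKM and the 4 Schwann cell markers to at most 0.888 RPKM. The 5 immune markers summed to 1.64 to 6.1 RPKM, with Ptprc at most 0.0171 RPKM but Itgam up to 5.85 RPKM and Cd68 up to 3.16 RPKM. Of the 3 tendon markers Tnmd was at 0 in all 18 libraries, while Scx had 30.3 to 243 RPKM. The 5 pericyte markers summed to 566 to 630 RPKM in QKO, 578 to 606 RPKM in TKO and 321 to 423 RPKM in WT cells at day 0, nearly all of it Acta2, an actin that muscle cells also make, with Myh11 at most 0.0987 RPKM. Some facts touch the day 0 results below. The 8 myogenic markers summed to 2508 to 2989 RPKM in QKO, 2651 to 3258 RPKM in TKO and 1405 to 1447 RPKM in WT cells at day 0. The main part was Myog, Myod1 and Des, which with Myf5 were above WT in every mutant library. Cdh15 was not higher, at 129 to 137 RPKM in QKO and 124 to 127 RPKM in TKO, against 132 to 157 RPKM in WT. Pax7 overlapped WT in both mutants, and Itga7 and Vcam1 did so in TKO only. The 6 fibroblast markers summed to 92.8 to 115 RPKM in QKO, 89.6 to 94.3 RPKM in TKO and 61.3 to 65.4 RPKM in WT cells, with Ly6a (Sca1) as the main part. Of these 6, Thy1 was higher in the mutants (6.16 to 9.64 RPKM, against at most 0.0937 RPKM in WT), Twist2 was lower (0.631 to 0.825 RPKM, against 5.03 and 5.85 RPKM in WT), and Lum stayed at or below 0.0393 RPKM in all 18 libraries. The position genes Hoxb2 and Hoxc10 of the Hox clusters also set WT day 0 apart. Hoxb2 had at most 0.507 RPKM in the mutants at day 0, against 10.2 and 17.5 RPKM in WT, and Hoxc10 had 18.2 to 24.3 RPKM, against 0.68 and 0.793 RPKM. The other position gene listed, Hoxd8, did not, with 6.05 to 6.35 RPKM in QKO, 4.66 to 5.52 RPKM in TKO and 5.8 and 6.13 RPKM in WT. The part of these differences in the results was not tested. The 2 WT day 0 libraries also differed from each other by transcript length: across 2389 genes with transcripts of 4000 to 6000 bases, replicate 2 minus replicate 1 had a median of -0.33 on the log2 scale, against -0.04 over 11883 genes of all lengths. Six4 (5596 bases), Eya3 (5223 bases), Eya1 (4367 bases) and Eya4 (4123 bases) have transcripts of that size, so their day 0 results are given with and without each WT library.

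**Figure D1:**
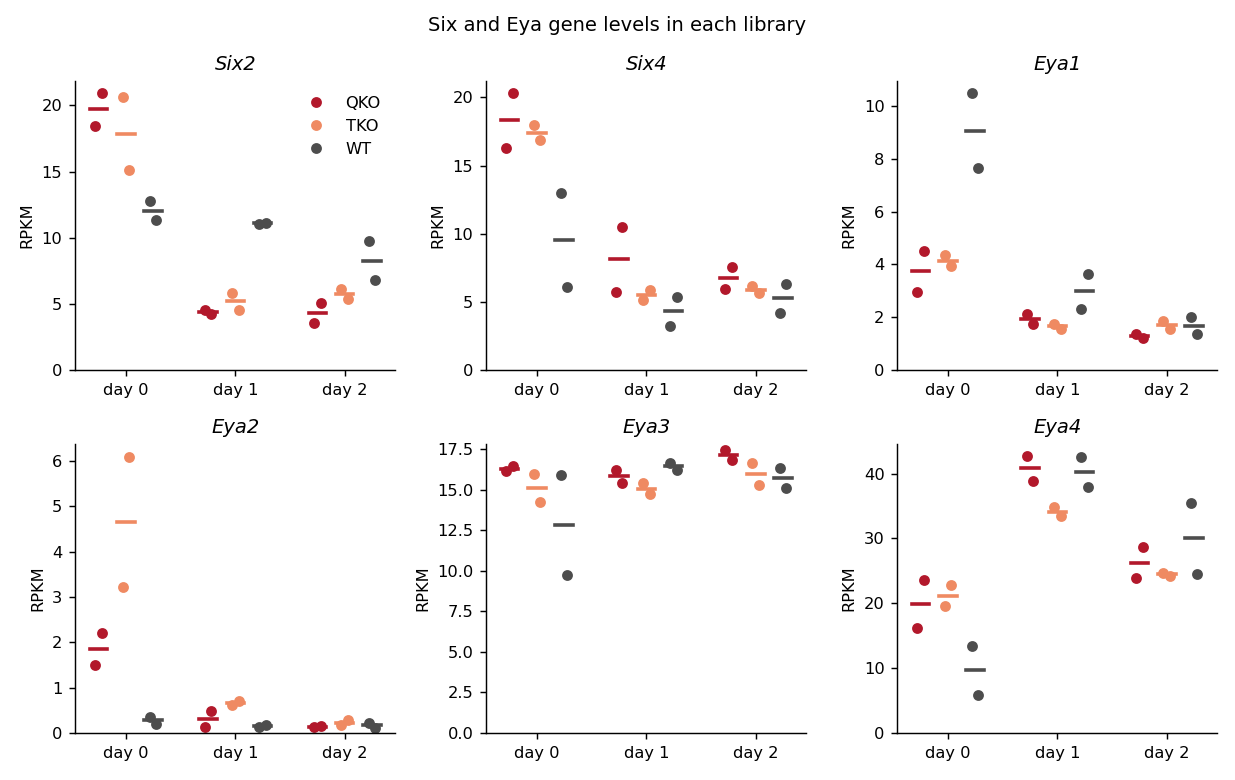
RPKM of the 6 genes in each of the 18 libraries (points), with group means as bars, by day on the horizontal axis and by genotype from left to right (QKO, TKO, WT). Six2 stayed at 6.8 to 12.7 RPKM in all 6 WT libraries, while at day 0 QKO had 18.4 and 21 RPKM and TKO 15.1 and 20.6 RPKM, with all mutant libraries at 3.55 to 6.1 RPKM afterwards.

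The MEF3 element itself could be looked up in the promoters. The core searched was TCAGGTT on either strand, in the window of 250 bases before to 50 bases after each gene start in the RefSeq promoter table (GRCm38.p6), and 4.73% of all 27025 genes there hold it in at least 1 promoter. Of the 6 genes, 4 have a promoter in the table (Six2, Six4, Eya3 and Eya4), and only Six4 holds the core. Of the 48 partner and target genes described further on, 33 have a promoter in the table, and only Myog holds it. The 2 stretches are shown because they place a possible Six-family binding sequence at a Six-family gene and at the muscle target whose RNA is followed here. Each is written 5′ to 3′ on the strand of its gene, with the core in capitals, reading in reverse complement at Six4:
Myog: agaggggggcTCAGGTTtctgtggcgt
Six4: gcctgggggaAACCTGAtcggccagat
The Myog stretch lies at chr1:134289910-134289936 on the plus strand, with the core starting 84 bases before the RefSeq start and 69 bases before the GENCODE M21 start. The Six4 stretch lies at chr12:73113326-73113352 on the minus strand. RefSeq gives Six4 more than 1 start, and the core begins 97 bases before the inner one (73113245) and 83 bases after the outer one (73113425). Of the 2 GENCODE M21 transcripts of Six4, 1 holds the stretch in its 5′ UTR and the other in an intron, so it lies inside the gene by that annotation. A match of these letters is a description and not a bound site.

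Eya4, a coactivator whose human gene is linked to hearing loss and heart muscle disease, was the most abundant of the Eya genes once differentiation had begun, and the levels of the 6 genes over the 9 groups followed different orders. Eya4 (chromosome 10, 23102963 to 23350786, minus strand, in GENCODE M21 on GRCm38) ran from a mean of 40.8 RPKM in QKO day 1 and 40.3 RPKM in WT day 1 to 9.67 RPKM in WT day 0, a 4.22-fold span. In that order WT day 1 lay apart from TKO day 1 (34.2 RPKM), TKO day 2 (24.4 RPKM) apart from TKO day 0 (21.2 RPKM), and QKO day 0 (19.9 RPKM) apart from WT day 0, while the libraries of the other 5 neighbouring pairs overlapped. Eya3 (chromosome 4, 132638987 to 132724765, plus strand), the family member found in most tissues, had 14.3 to 17.5 RPKM in 17 libraries and 9.75 RPKM in WT day 0 replicate 2, and 7 of 8 neighbouring pairs overlapped. Eya1 (chromosome 1, 14168954 to 14310235, minus strand), the gene of branchio-oto-renal syndrome in humans, was highest in WT day 0 (7.63 and 10.5 RPKM), next in TKO and QKO day 0 (2.96 to 4.52 RPKM) and lowest in QKO day 2 (1.21 and 1.38 RPKM). Eya2 (chromosome 2, 165595032 to 165771727, plus strand), known from the chick embryo as a partner of Six-family and Dach proteins in muscle formation, was the lowest of the Eya genes in every group but TKO day 0, with at least 1 RPKM only in the 4 mutant libraries of day 0. It passed the filter on low values (at least 1 RPKM in at least 2 of the 18 libraries) through those libraries alone, so it could be tested only because the mutants were high there.

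At day 0 the ratio of Six4 to Six2 was 0.884 and 0.97 in QKO, 0.87 and 1.12 in TKO and 1.02 and 0.542 in WT cells (replicates 1 and 2). Six2 (chromosome 17, 85684277 to 85688274, minus strand), a gene best known for keeping kidney progenitors undifferentiated, ran from a mean of 19.7 RPKM in QKO day 0 to 4.31 RPKM in QKO day 2. Its 3 WT groups (means of 12, 11.1 and 8.28 RPKM from day 0 to day 2) stood in the middle of the order, apart from the mutant day 0 groups above and the mutant day 1 and day 2 groups below. The 4 mutant libraries of day 0 all had more Six2 than any WT library, and the 8 mutant libraries of days 1 and 2 all had less. Six4 (chromosome 12, 73099609 to 73113456, minus strand), a Six-family gene of early muscle, had means of 18.3 RPKM in QKO day 0 and 17.4 RPKM in TKO day 0, and all other groups lay between 4.31 and 9.57 RPKM, with 6 neighbouring pairs among them that overlapped. The ratio of Six4 to Six2 was 1.27 and 2.47 in QKO day 1 and 0.887 and 1.28 in TKO day 1, against 0.295 and 0.482 in WT day 1.

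At day 0 the question was whether the mutant MuSCs differ from WT MuSCs before differentiation. In both mutants Eya1 was lower and Eya4 and Eya2 were higher than in WT. Six2 and Six4 were higher too, and passed the threshold given next in QKO but not in TKO. Between QKO and TKO their log2 fold changes were 0.15 and 0.06, neither past that threshold. Genes were called changed at an adjusted p under 0.05 in limma's moderated test on log2(RPKM + 1), with Benjamini-Hochberg adjustment over the 11890 genes tested. By that rule, and leaving Eya2 aside, 1 of the 5 other genes fell and 3 rose in QKO against WT, where 35.5% of all genes were called (18.1% lower and 17.3% higher). In TKO against WT 1 fell and 1 rose, where 23.0% were called (10.2% lower and 12.8% higher). Eya2 passed the filter through these same mutant libraries, so its tests are given from a fit of 17318 genes with no filter on low values. Six5, the family member mutated in both models, had 1.25 and 1.57 RPKM in QKO, 1.36 and 1.59 RPKM in TKO and 2.26 and 3.39 RPKM in WT cells at day 0, and was called lower in both mutants (log2 fold change -0.65, adjusted p 0.00841, and -0.61, adjusted p 0.0167, by limma). It was not called in either mutant later. At day 1 it had 0.805 and 1.03 RPKM in QKO, 0.784 and 1.02 RPKM in TKO and 0.71 and 0.882 RPKM in WT. At day 2 it had 0.582 and 0.928 RPKM in QKO, 1.49 and 1.72 RPKM in TKO and 1.48 and 1.66 RPKM in WT. The TKO and QKO comparisons share the WT libraries, so their likeness is not independent, and in bulk RNA fewer cells of a type and less RNA per cell cannot be told apart.

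Eya1 had 2.96 and 4.52 RPKM in QKO and 3.95 and 4.35 RPKM in TKO, against 7.63 and 10.5 RPKM in WT. No mutant library reached a WT library. The log2 fold change was -1.09 ± 0.21 (SE) in QKO (limma adjusted p 0.00183) and -0.95 ± 0.21 in TKO (adjusted p 0.00539). Without WT replicate 1 these were -0.88 and -0.75, and without WT replicate 2 -1.30 and -1.16, each still called. The QKO call held with any library left out, and the TKO call was lost only without TKO replicate 2 (-0.90, adjusted p 0.0554).

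Eya4 had 16.2 and 23.6 RPKM in QKO and 19.6 and 22.8 RPKM in TKO, against 5.92 and 13.4 RPKM in WT. The mutant libraries were all above WT, and WT replicate 2 had the lowest value of the 18 libraries. The log2 fold change was 1.04 ± 0.28 in QKO (limma adjusted p 0.0114) and 1.15 ± 0.28 in TKO (adjusted p 0.00981). Without WT replicate 2 these were 0.51 (adjusted p 0.127) and 0.62 (adjusted p 0.101), and without WT replicate 1 they were 1.57 and 1.68, both called. The calls were also lost without QKO replicate 2 (0.78, adjusted p 0.101) and without TKO replicate 2 (1.04, adjusted p 0.0873). With the length trend of each library removed, an alternative chosen after seeing the data, the values were 0.93 (adjusted p 0.00729) in QKO and 1.02 (adjusted p 0.00594) in TKO.

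Eya2 had 1.5 and 2.21 RPKM (204 and 318 reads) in QKO and 3.23 and 6.09 RPKM (460 and 820 reads) in TKO, against 0.361 and 0.198 RPKM (61 and 33 reads) in WT. The groups did not overlap, and the means were 6.63-fold higher in QKO and 16.6-fold higher in TKO than in WT. The log2 fold change on the RPKM + 1 scale, which understates a change at such low levels, was 1.15 in QKO (limma adjusted p 0.00275) and 2.10 in TKO (adjusted p 5.82e-05) in the fit with no filter. It was 2.75 in QKO and 4.02 in TKO with limma voom on the recovered reads, after the filter.

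Six2 had 18.4 and 21 RPKM in QKO and 15.1 and 20.6 RPKM in TKO, against 11.3 and 12.7 RPKM in WT. The mutant libraries were again all above WT. The log2 fold change was 0.67 ± 0.20 in QKO (limma adjusted p 0.0185), and 0.52 ± 0.20 in TKO, which missed the threshold (adjusted p 0.0699). The QKO call was lost without WT replicate 2 (0.59, adjusted p 0.0949) and without QKO replicate 2 (0.58, adjusted p 0.101).

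Six4 had 16.3 and 20.3 RPKM in QKO and 16.9 and 17.9 RPKM in TKO, against 6.13 and 13.0 RPKM in WT. The 4 mutant libraries lay above WT, with WT replicate 2 far below WT replicate 1. The log2 fold change was 0.94 ± 0.31 in QKO (limma adjusted p 0.0323) and 0.88 ± 0.31 in TKO (adjusted p 0.0581). The QKO value was 0.46 (adjusted p 0.324) without WT replicate 2, 1.43 without WT replicate 1, 1.09 (adjusted p 0.0612) without QKO replicate 1 and 0.79 (adjusted p 0.161) without QKO replicate 2, and with no filter on low values its adjusted p was 0.056. The TKO value was 1.37 (adjusted p 0.00349) without WT replicate 1 and 0.39 (adjusted p 0.482) without WT replicate 2, so WT replicate 2 bears on the Six4 result in both mutants. Eya3 was not called in either mutant, at 0.36 ± 0.17 in QKO (adjusted p 0.105) and 0.26 ± 0.17 in TKO (adjusted p 0.271). Without WT replicate 1 the Eya3 values were 0.69 (adjusted p 0.000396) and 0.58 (adjusted p 0.00143), leaving out WT replicate 2 gave 0.03 and -0.07, and with the length trend removed they were 0.16 and 0.06. When only the 2 groups compared entered each fit, no gene but Eya2 was called in either mutant at day 0.

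**Figure D2:**
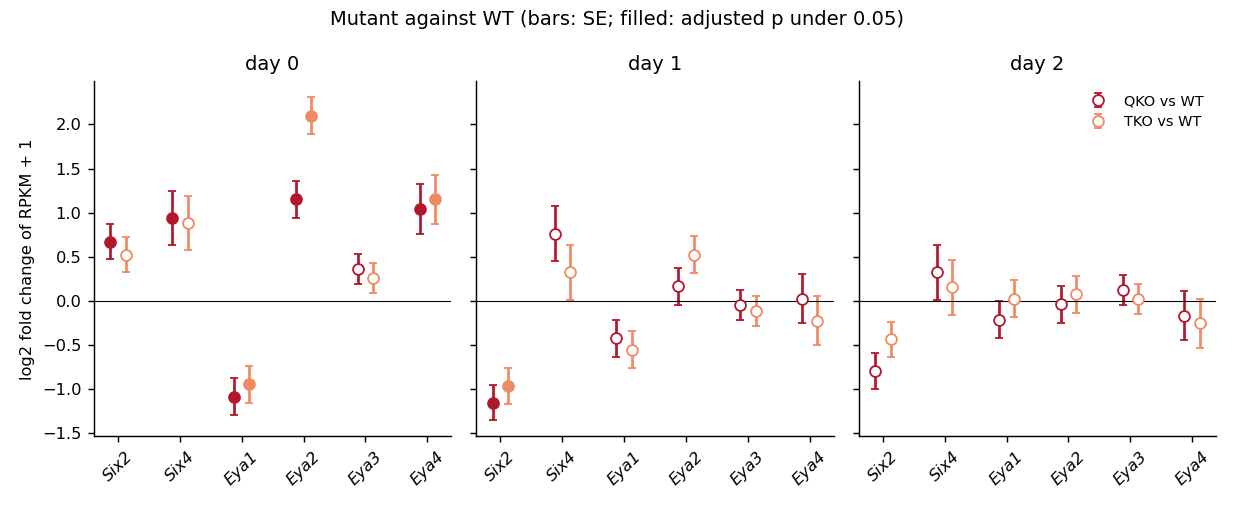
Log2 fold change (RPKM + 1) of the 6 genes in QKO and TKO against WT at days 0, 1 and 2, with SE as bars and filled points for adjusted p under 0.05, where Eya2 had passed the filter through the mutant day 0 libraries. At day 0 Eya1 lay at -1.09 and -0.95 while Eya2 and Eya4 lay at 1.04 or above, and at day 1 only Six2 was called.

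Shares of the Eya family were taken within each library. Eya1 was 8.04% and 9.67% of the summed Eya RPKM in QKO and 8.38% and 10.1% in TKO, against 26.1% and 32.5% in WT. Eya4 was 44.0% and 50.4% in QKO and 45.4% and 48.4% in TKO, against 25.2% and 33.4% in WT. Eya2 was 4.07% and 4.73% in QKO and 7.49% and 12.9% in TKO, against 0.844% and 0.901% in WT. Eya3 took 35.2% and 43.9% in QKO, 30.3% and 37.1% in TKO and 39.6% and 41.5% in WT. Both WT values of Eya3 thus lay inside the QKO range and above TKO. The part of the length difference between the WT libraries in these shares was not tested. At day 1 Eya4 was 65.4% to 69.8% of the sum in all 6 libraries, Eya3 26.5% to 29.3%, and Eya1 3.07% to 6.29%. The summed Eya level was 36.8 and 46.8 RPKM in QKO, 43.1 and 47.1 RPKM in TKO and 23.5 and 40.1 RPKM in WT cells at day 0, and 50.5 to 61.6 RPKM in the 6 libraries of day 1.

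**Figure D3:**
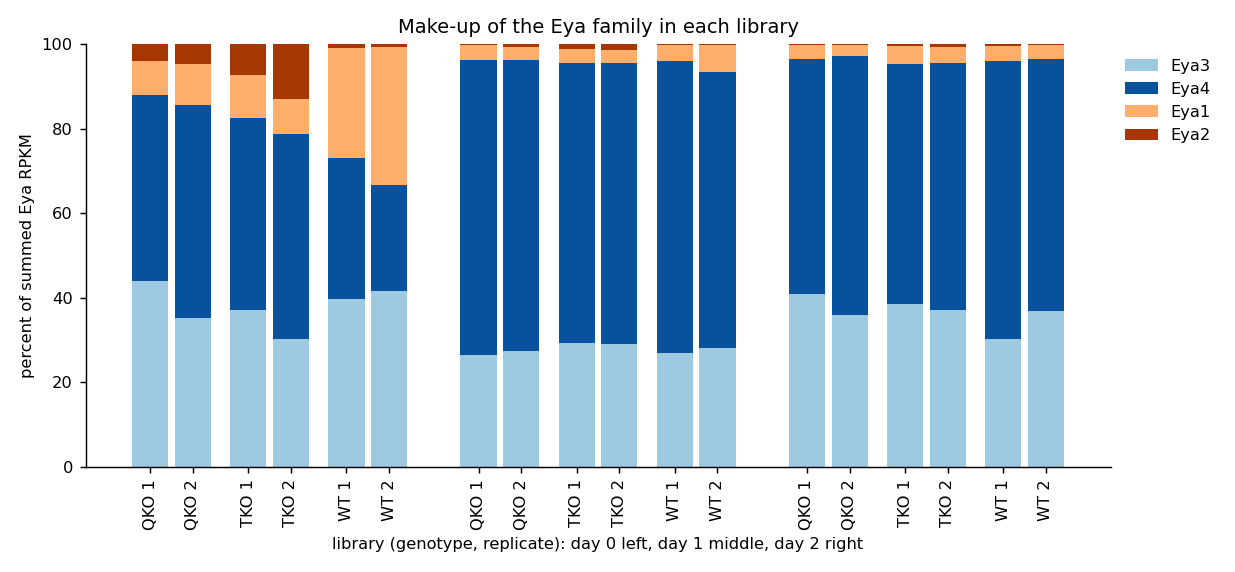
Share of each Eya gene in the summed Eya RPKM of each library (stacked to 100%), with day 0, day 1 and day 2 from left to right and QKO, TKO and WT within each day. Eya1 takes 26.1% and 32.5% in the WT libraries of day 0 and at most 10.1% in every other library.

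QKO carries the added Dmwd mutation, which was made in cells of a TKO line. The haploid clones, their passage number and the donor mice differ as well, and their part was not tested. At day 0 Eya2 was the only 1 of the 6 genes called between QKO and TKO, the groups through which it passed the filter. It had 1.5 and 2.21 RPKM in QKO against 3.23 and 6.09 RPKM in TKO, a log2 fold change of -0.95 ± 0.21 (limma adjusted p 0.0294). Of all genes 2.76% were called and 1.23% were called lower. The call was lost without TKO replicate 2 (-0.58, adjusted p 0.251), without QKO replicate 1 (-0.77, adjusted p 0.253), with a smaller pseudocount of 0.5 or 0.1 (adjusted p 0.0585 and 0.191) and with voom on recovered reads (-1.27, adjusted p 0.0761). With no filter its adjusted p was 0.0376. None of the 6 genes was called between QKO and TKO at day 1 or day 2 by limma, and none had an unadjusted p under 0.05 there, with 0.252% and 0.74% of all genes called. The largest differences were 0.44 ± 0.31 for Six4 at day 1 (8.12 RPKM on average in QKO, 5.51 RPKM in TKO) and -0.36 ± 0.20 for Six2 at day 2 (4.31 RPKM in QKO, 5.74 RPKM in TKO).

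The step from day 0 to day 1 asked how the genes move when the cells begin to differentiate. Eya4 was higher at day 1, Eya1 and Six4 were lower, and Six2 and Eya2 were lower in the mutants. As called by limma, leaving Eya2 aside, 3 of the 5 other genes fell and 1 rose in QKO, 3 fell in TKO, and 2 fell and 1 rose in WT, where 57.8%, 57.9% and 66.6% of all genes were called in QKO, TKO and WT. Lower calls made up 42.4% of all genes in QKO, 42.1% in TKO and 46.1% in WT, and higher calls 15.4% in QKO, 15.8% in TKO and 20.4% in WT. The median log2 fold change over all genes was -0.32 in QKO, -0.31 in TKO and -0.34 in WT as the RPKM were deposited, and -0.01, -0.01 and -0.02 after median-ratio scaling, so part of each fall below is shared by the typical gene. No gene of the 6 was called between day 1 and day 2 in any genotype by limma, with Eya1 in WT and Eya4 in QKO at an unadjusted p under 0.05, while 3.04% of all genes were called in QKO, 6.62% in TKO and 15.4% in WT.

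Eya4 had 38.9 and 42.8 RPKM at day 1 in QKO, against 16.2 and 23.6 RPKM at day 0, a log2 fold change of 1.02 ± 0.28 (limma adjusted p 0.00616). In WT it had 38.0 and 42.5 RPKM at day 1, against 5.92 and 13.4 RPKM at day 0 (2.04 ± 0.28, adjusted p 2.07e-05). In TKO it had 33.5 and 34.8 RPKM at day 1, against 19.6 and 22.8 RPKM at day 0 (0.67 ± 0.28, adjusted p 0.0527). The day 1 libraries of each genotype were all above its day 0 libraries. Relative to the typical gene, with median-ratio scaling, the values were 1.38 (adjusted p 0.000782) in QKO, 1.02 (adjusted p 0.0066) in TKO and 2.41 (adjusted p 4.53e-06) in WT. The QKO call was lost without QKO day 0 replicate 1 (0.77, adjusted p 0.0726). At day 2 Eya4 had 23.8 and 28.7 RPKM in QKO, 24.1 and 24.7 RPKM in TKO and 24.6 and 35.4 RPKM in WT, below every day 1 library of the same genotype.

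Six2 was called lower at day 1 than at day 0 in both mutants and not in WT. It had 4.25 and 4.53 RPKM at day 1 in QKO, against 18.4 and 21 RPKM at day 0 (-1.94 ± 0.20, limma adjusted p 2.16e-06). In TKO it had 4.57 and 5.83 RPKM at day 1, against 15.1 and 20.6 RPKM at day 0 (-1.60 ± 0.20, adjusted p 1.27e-05). In WT it had 11.1 RPKM in both day 1 libraries, against 11.3 and 12.7 RPKM at day 0 (-0.11 ± 0.20, adjusted p 0.655). The WT value was 0.26 with median-ratio scaling, so its sign depends on the scaling, and in the mutants it remained a fall (-1.60 in QKO and -1.27 in TKO). The WT libraries of day 1 also differed from those of day 0 in position genes, with Hoxc10 at 20.5 and 20.6 RPKM at day 1 against 0.68 and 0.793 RPKM at day 0, Hoxb2 at 0 in both against 10.2 and 17.5 RPKM, and Hoxd8 at 0.0243 and 0.0427 RPKM against 5.8 and 6.13 RPKM. In the mutants Hoxc10 had 14.4 to 17.9 RPKM at day 1 against 18.2 to 24.3 RPKM at day 0, and Hoxd8 had 6.02 to 7.83 RPKM against 4.66 to 6.35 RPKM. Their part in the WT day step, and so in each difference between WT and mutant day steps, was not tested.

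Eya2 was lower at day 1 in the mutants too. It had 0.128 and 0.474 RPKM (21 and 57 reads) at day 1 in QKO, against 1.5 and 2.21 RPKM at day 0, and 0.61 and 0.707 RPKM (76 and 72 reads) in TKO, against 3.23 and 6.09 RPKM. In the fit with no filter these differences were -1.14 in QKO (limma adjusted p 0.00103) and -1.72 in TKO (adjusted p 5.17e-05). WT cells had 0.134 and 0.174 RPKM at day 1, against 0.361 and 0.198 RPKM at day 0. At day 2 all 6 libraries had 0.109 to 0.28 RPKM, from 15 to 32 reads each, so differences between genotypes were not detectable at this depth.

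Six4 had 5.74 and 10.5 RPKM at day 1 in QKO, against 16.3 and 20.3 RPKM at day 0 (-1.13 ± 0.31, limma adjusted p 0.0074). In TKO it had 5.17 and 5.85 RPKM, against 16.9 and 17.9 RPKM (-1.50 ± 0.31, adjusted p 0.00108). In WT it had 3.26 and 5.35 RPKM, against 6.13 and 13.0 RPKM (-0.94 ± 0.31, adjusted p 0.0172). The TKO call held with any library left out. The WT call was lost without WT day 0 replicate 1 (-0.45, adjusted p 0.211) and without WT day 1 replicate 1 (-0.65, adjusted p 0.157), its value was -1.43 without WT day 0 replicate 2, and it was -0.60 (adjusted p 0.0957) with median-ratio scaling and -0.51 (adjusted p 0.128) with quantile normalization. The QKO call was lost without QKO day 1 replicate 1 (-0.74, adjusted p 0.108) and without QKO day 0 replicate 2 (-0.97, adjusted p 0.0582).

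Eya1 had 1.74 and 2.12 RPKM at day 1 in QKO, against 2.96 and 4.52 RPKM at day 0 (-0.68 ± 0.21, limma adjusted p 0.0133), and 1.58 and 1.75 RPKM in TKO, against 3.95 and 4.35 RPKM (-0.95 ± 0.21, adjusted p 0.00156). In WT it had 2.32 and 3.65 RPKM, against 7.63 and 10.5 RPKM (-1.34 ± 0.21, adjusted p 7.44e-05). The WT fall was called in every alternative that kept the gene, at -0.87 with quantile normalization. That normalization ended the TKO call (-0.38, adjusted p 0.132) and put QKO at -0.08 (adjusted p 0.751), and with the length trend removed TKO was at -0.56, still called, and QKO at -0.33 (adjusted p 0.149). In QKO it was -0.40 (adjusted p 0.119) with median-ratio scaling, -0.44 (adjusted p 0.144) without QKO day 0 replicate 2 and -0.58 (adjusted p 0.0828) without QKO day 1 replicate 2. Eya3 had -0.04 ± 0.17 in QKO, a value that rounds to 0 in TKO and 0.37 ± 0.17 in WT (adjusted p 0.858, 0.987 and 0.0622). Median-ratio scaling put Eya3 at 0.31, 0.34 and 0.75 in QKO, TKO and WT, and only the WT value was then called (adjusted p 0.00165).

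At day 2 against day 0, leaving Eya2 aside, limma called 3 of the 5 other genes lower in QKO and 3 in TKO, namely Six2, Six4 and Eya1, and Six2 and Eya1 lower and Eya4 higher in WT. Of all genes 60.2% were called in QKO (42.9% lower), 59.3% in TKO (38.2% lower) and 66.7% in WT (41.7% lower and 24.9% higher). The Six2 fall in WT was -0.51 ± 0.20 (adjusted p 0.0349), with 6.8 and 9.76 RPKM at day 2 against 11.3 and 12.7 RPKM at day 0. It was -0.24 (adjusted p 0.266) with median-ratio scaling, -0.27 (adjusted p 0.307) without WT day 2 replicate 2 and -0.43 (adjusted p 0.123) without WT day 0 replicate 1. Eya1 in WT had 1.37 and 2 RPKM at day 2 against 7.63 and 10.5 RPKM at day 0 (-1.90 ± 0.21).

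**Figure D4:**
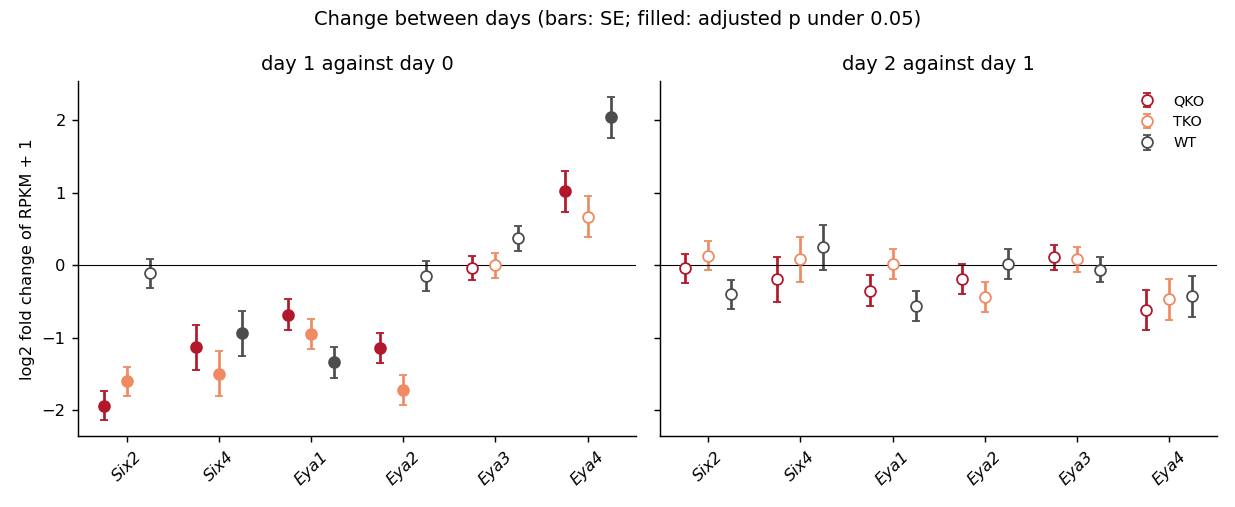
Log2 fold change (RPKM + 1) of the 6 genes from day 0 to day 1 and from day 1 to day 2 in QKO, TKO and WT, with SE as bars and filled points for adjusted p under 0.05. Eya2 is drawn from the filtered fit, which it entered through the mutant day 0 libraries alone, so its filled points are a description only. From day 0 to day 1 Six2 lay at -1.94 in QKO, -1.60 in TKO and -0.11 in WT, and from day 1 to day 2 none of the 6 genes was called.

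At day 1 Six2 was the only 1 of the 6 genes called between mutant and WT cells. It had 4.25 and 4.53 RPKM in QKO and 4.57 and 5.83 RPKM in TKO, against 11.1 RPKM in both WT libraries. The log2 fold change was -1.16 ± 0.20 in QKO (limma adjusted p 0.00935, with 2.76% of all genes called and 1.33% called lower) and -0.97 ± 0.20 in TKO (adjusted p 0.022, with 2.08% called and 0.841% called lower). Leaving out any of the libraries compared kept the value at -1.13 or below in QKO and at -0.82 or below in TKO, but ended each call: adjusted p was 0.0589 without QKO replicate 1 and 0.0913 without QKO replicate 2 for QKO, and 0.0912 without TKO replicate 1 and 0.272 without TKO replicate 2 for TKO. Without WT replicate 1 adjusted p was 0.0782 in QKO and 0.139 in TKO, and without WT replicate 2 it was 0.0794 in QKO and 0.163 in TKO. The TKO call was also lost with voom on recovered reads (-1.09, adjusted p 0.0562).

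At day 2 no gene of the 6 was called in either mutant against WT by limma, where 0.345% of all genes were called in QKO and 0.109% in TKO, and Six2 alone had an unadjusted p under 0.05 in each. Six2 had 3.55 and 5.08 RPKM in QKO and 5.38 and 6.1 RPKM in TKO, against 6.8 and 9.76 RPKM in WT (-0.80 ± 0.20, adjusted p 0.103, and -0.44 ± 0.20, adjusted p 1). WT day 2 replicate 2, the lower of the WT libraries, also differed from the other WT libraries of days 1 and 2 in Hoxd8: it had 8.79 RPKM of Hoxd8, against 0.113 RPKM in WT day 2 replicate 1 and 0.0243 and 0.0427 RPKM in WT day 1. Without it the QKO value was -1.03 (adjusted p 0.024). WT day 0, with 5.8 and 6.13 RPKM of Hoxd8, had 11.3 and 12.7 RPKM of Six2, and the part of Hoxd8 in the Six2 level was not tested.

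Whether the difference between mutant and WT cells itself changed with the day was tested as the difference at day 1 or day 2 less that at day 0. Leaving Eya2 aside, Six2 and Eya4 were called lower in TKO at both days (9.34% and 8.52% of all genes called at day 1 and day 2, 5.66% and 5.1% lower), and Six2 in QKO (11.0% and 12.7% called, 6.16% and 8.39% lower). For Six2 the difference was -1.83 ± 0.28 in QKO at day 1 (limma adjusted p 0.00149), -1.47 ± 0.28 in QKO at day 2 (adjusted p 0.00477) and -1.49 ± 0.28 in TKO at day 1 (adjusted p 0.00452), and each of these held with any of the 18 libraries left out. The TKO value at day 2, -0.96 ± 0.28 (adjusted p 0.0474), was called in 5 of the 18 fits that left out a library, with values from -1.20 to -0.73, and was not called with voom, with a smaller pseudocount or with no filter (adjusted p 0.0512 to 0.0641). In the fit with no filter Eya2 had -0.99 (adjusted p 0.0674) at day 1 and -1.19 (adjusted p 0.03) at day 2 in QKO, and -1.58 (adjusted p 0.00929) and -2.03 (adjusted p 0.0021) in TKO, and with voom on recovered reads none of these passed the threshold (adjusted p 0.0692 to 0.255). Eya4 in TKO had -1.38 ± 0.39 at day 1 (adjusted p 0.0424) and -1.41 ± 0.39 at day 2 (adjusted p 0.0405), called in 5 and 4 of the 18 fits with a library left out, and was -0.85 and -0.88 without WT day 0 replicate 2. Its calls were also lost with voom (adjusted p 0.0552 and 0.0523) and with no filter (0.0737 and 0.0684). Eya1 went the other way without being called, at 0.87 ± 0.30 in QKO (adjusted p 0.069) and 0.97 ± 0.30 in TKO (adjusted p 0.0598) at day 2.

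Genes that work with Six-family and Eya proteins, or are known targets, were described from lists chosen by role. Of 14 muscle genes with known control by Six-family proteins or MEF3, 13 were tested, and at day 0 6 were called higher and none lower in QKO against WT, and 8 higher and none lower in TKO. Their median log2 fold change was 0.88 in QKO and 1.14 in TKO, against -0.01 and 0.01 over all genes, of which 17.3% were called higher in QKO and 12.8% in TKO. Myog had 566 and 775 RPKM in QKO and 719 and 1085 RPKM in TKO, against 182 and 214 RPKM in WT (1.74 ± 0.28, limma adjusted p 0.000536, and 2.16 ± 0.28, adjusted p 9.16e-05). Myod1, the determination factor of muscle, had 880 and 955 RPKM in QKO and 904 and 1009 RPKM in TKO, against 552 RPKM in both WT libraries (0.73 ± 0.22, adjusted p 0.0203, and 0.79 ± 0.22, adjusted p 0.0204). Pax7, the stem cell marker, was not called (0.55 in QKO and 0.32 in TKO), with 26.7 and 26.9 RPKM in QKO and 20.8 and 24.9 RPKM in TKO, against 11.7 and 27.6 RPKM in WT. At day 1 the 6 libraries had 1988 to 2702 RPKM of Myog, and Myog was not called at day 1 or day 2 in either mutant.

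The fast fibre list of 11 genes was tested whole. At day 0 3 of them were called higher in QKO and 6 in TKO, none lower, with medians of 0.69 and 1.13, where 17.3% of all genes were called higher in QKO and 12.8% in TKO. The largest called changes among all listed genes were Myh1 (a fast myosin heavy chain, 2.90 ± 0.55 in QKO and 3.32 ± 0.55 in TKO), Atp2a1 (the fast calcium pump SERCA1, 2.23 ± 0.29 and 3.07 ± 0.29) and Igfbp5 (an IGF binding protein, 1.89 ± 0.40 and 2.58 ± 0.40), with limma adjusted p of 0.00176, 0.000127 and 0.00334 in QKO and 0.000804, 7.3e-06 and 0.000461 in TKO. Of the 6 slow fibre genes 5 were tested, and 2 were called higher in each mutant. Among 12 partners and cofactors, 9 of them tested, 2 rose and 1 fell in QKO, where 35.5% of all genes were called, and 2 rose and 3 fell in TKO, where 23.0% were. The QKO share is near that of all genes. The faller in QKO was Six5, mutated in both models, and those in TKO were Six5 with Tle1 and Tle2, both Groucho corepressors. The risers were the same in both, Skil (a relative of the Ski corepressor, 1.77 ± 0.31 in QKO and 1.52 ± 0.31 in TKO) and Tle3 (a Groucho corepressor, 0.83 ± 0.16 and 1.01 ± 0.16). These partners were singled out after their values were seen. In WT day 0 replicates 1 and 2 Skil had 12.2 and 4.01 RPKM, Myh1 12.4 and 4.94 RPKM and Atp2a1 23.1 and 13.1 RPKM. Tle3 had 24.3 and 20.1 RPKM there, and Igfbp5 141 and 137 RPKM. Values of the listed genes are not given without each WT library, and the part of the length difference between those libraries in them was not tested. Dach1, Dach2 and Pax3 were below the filter. Of 5 genes listed for other links to Eya proteins 3 were tested, of which 2 were called lower in QKO and 1 in TKO, where 18.1% and 10.2% of all genes were. H2afx, the histone whose tyrosine Eya proteins act on, was called lower, at -1.51 ± 0.21 in QKO (adjusted p 0.000258) and -0.98 ± 0.21 in TKO (adjusted p 0.00524), and Gnai2, a G protein subunit, was called lower in QKO (-0.45, adjusted p 0.0305), with -0.39 (adjusted p 0.0722) in TKO. Baz1b was not called. These genes were also singled out after their values were seen.

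At day 1, of the 41 listed genes tested, 1 was called against WT in QKO and 2 in TKO, where 2.76% and 2.08% of all genes were called, and none of them had been called at day 0. The QKO count is near the share of all genes. Myl2, a slow and heart myosin light chain, was called lower in QKO (-1.16 ± 0.28, limma adjusted p 0.0457) and in TKO (-1.44 ± 0.28, adjusted p 0.0195). Its levels were low, at 0.587 and 0.154 RPKM in QKO and 0.0825 and 0.141 RPKM in TKO, against 2.63 and 1.5 RPKM in WT. Lbx1, a homeobox gene of migrating muscle precursors, was called higher in TKO (0.91 ± 0.16, adjusted p 0.0131) and lower in QKO against TKO (-1.16 ± 0.16, adjusted p 0.00673). At day 2 only Myf6, a regulatory factor of late muscle differentiation, was called against WT, lower in QKO (-1.46 ± 0.23, limma adjusted p 0.0143). Of all genes 0.345% were called there in QKO and 0.109% in TKO. In the difference of differences, 6 of the 13 tested target genes of Six-family proteins were called lower in QKO at day 1 and at day 2, and 6 at day 1 and 5 at day 2 in TKO, with none called higher, where 6.16% and 8.39% of all genes were called lower in QKO and 5.66% and 5.1% in TKO. Myog was -1.77 ± 0.39 in QKO (adjusted p 0.0127) and -2.12 ± 0.39 in TKO (adjusted p 0.00422) at day 1 by limma. Each value of this kind holds the day 0 difference with its sign turned, so these calls are not separate from those at day 0. From day 0 to day 1 Myog rose by 1.81 ± 0.28 in QKO, 1.46 ± 0.28 in TKO and 3.58 ± 0.28 in WT on the log2 scale, all called. Over the same step 9 of the 11 fast fibre genes were called higher in QKO, 8 in TKO and 9 in WT, and none lower, where 15.4%, 15.8% and 20.4% of all genes were called higher in QKO, TKO and WT. Ckm, the muscle creatine kinase, rose by 5.27 ± 0.46 in QKO, 4.61 ± 0.46 in TKO and 6.42 ± 0.46 in WT, and Ccnd1, the cyclin D1 gene of proliferating cells, had -5.76 ± 0.35 in QKO, -5.24 ± 0.35 in TKO and -5.75 ± 0.35 in WT, all called lower.

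The genes whose pattern over the 18 libraries was most like that of each Six-family or Eya gene were found by Pearson's r of log2(RPKM + 1). The libraries share their days and genotypes, so it is given as a description only. For Six4 they were Ptgfrn (r 0.981), Zcchc14 (0.971) and Usp22 (0.959). Ptgfrn, a membrane protein of the immunoglobulin superfamily, averaged 33.4 RPKM in QKO, 33.0 RPKM in TKO and 16.5 RPKM in WT cells at day 0, and 7.45 to 13.2 RPKM in the groups of days 1 and 2. For Six2 they were C1qtnf6 (0.936), Matn2 (0.935) and Cpne4 (0.929). Cpne4, a calcium-dependent membrane-binding protein, averaged 7.4 RPKM in QKO, 7.39 RPKM in TKO and 3.5 RPKM in WT at day 0, and 0.192 RPKM in QKO, 0.144 RPKM in TKO and 1.94 RPKM in WT at day 1. For Eya1 they were Cobll1 (0.962), Stc1 (0.96) and Prl2c2 (0.955), the last of which can share reads with near-identical copies. Stc1, a secreted hormone, averaged 0.512 RPKM in QKO, 0.647 RPKM in TKO and 1.75 RPKM in WT at day 0. For Eya2 they were Ccl11 (0.971), Serpinb9g (0.96) and Bmp4 (0.954), for Eya4 Kdm4c (0.966), Enah (0.965) and Larp4b (0.964), and for Eya3 Tmem245 (0.931), Ube4a (0.917) and Sept11 (0.904). Enah, an actin regulator, averaged 86.2 RPKM in QKO, 91.6 RPKM in TKO and 87.3 RPKM in WT at day 1, and 13.7 RPKM in WT day 0. By Spearman's rho only 1 of these 18 genes, Tmem245, was among the 3 most alike. Among the 6 genes themselves the highest r was 0.79 for Eya2 with Six4 and the lowest was -0.67 for Eya1 with Eya4. Eya2 reached 1 RPKM only in the 4 mutant libraries of day 0, so its r values, with Six4 and with the 3 genes above, rest largely on those libraries.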

How the data were processed

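RNA-seq libraries from MuSCs and differentiating cells were made with a TruSeq kit and sequenced on an Illumina HiSeq X. The authors aligned reads to protein-coding genes of GRCm38.p5 with HISAT2 2.0.5 and quantified genes with StringTie (version not given in the sources used here). They deposited RPKM values in 1 table of 22013 rows and 18 libraries, with 0 further sample columns. Of rows with the same symbol only the one of highest mean entered, so 1401 were dropped. RPKM rise in steps of whole reads: 16536 of 16548 rows (99.93%) gave whole reads in every library within 0.02 of a read plus rounding, against 0.0% of 2000 control rows. Of reads numbered 1 to 20, 61.9% were even, so read pairs may count as 2. One read on a 1 kb transcript is 0.0165 to 0.0288 RPKM.

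Genes with at least 1 RPKM in at least 2 libraries were kept, 11890 in all. Values as log2(RPKM + 1) were fitted with limma 3.58.1 (R 4.3.3; trend and robust empirical Bayes; 1 mean for each of 9 groups; 9 residual degrees of freedom) over 22 contrasts, with Benjamini-Hochberg adjustment in each. The fit was tested on simulated data. Alternatives were other pseudocounts (0.1, 0.5), filters and scalings, voom on recovered reads, other fits, a replicate block, each library left out, and removal of each library's length trend (loess, span 0.5), the last added after seeing the data. Deviations of same-numbered libraries had r of -0.38 to 0.55 over 36 pairs of groups (median 0.04, above 0.1 in 10 pairs). Numbers were not taken as pairs, and a pairing of days within a genotype was not tested on its own. Named were the 6 genes, for each the 3 genes with the highest r without clone or model names, and of listed genes up to 3 called per contrast by size, with Myog, Myod1, Pax7 and Six5 named in addition. The genes and lists were chosen with earlier results of these data known. A further family member is not reported here. Protein sequences were not used here.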

Additional observations from a re-analysis of the deposited data

Results flagged for a closer look

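A change with the day in the difference between mutant and WT cells was called for Six2 and, in TKO, Eya4, by a test of that change itself in limma (difference at the later day less that at day 0, adjusted over all genes). Some of these calls depended on the processing, as given below. The WT libraries enter every value, so the values are not independent.

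Six2 had -1.83 ± 0.28 in QKO at day 1 (adjusted p 0.00149), -1.47 ± 0.28 in QKO at day 2 (adjusted p 0.00477), -1.49 ± 0.28 in TKO at day 1 (adjusted p 0.00452) and -0.96 ± 0.28 in TKO at day 2 (adjusted p 0.0474). With only the groups compared in the limma fit, both day 2 calls were lost (adjusted p 0.0785 in QKO and 0.167 in TKO). The TKO call at day 2 was also lost with voom (adjusted p 0.0641) and with no filter (adjusted p 0.0638).

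Eya2 had -0.99 in QKO at day 1, -1.19 in QKO at day 2, -1.58 in TKO at day 1 and -2.03 in TKO at day 2. It passed the filter on low values through the mutant day 0 libraries alone, so these are given as a description. With no filter 3 of the 4 passed the threshold (adjusted p 0.0674 in QKO at day 1, 0.03 in QKO at day 2, and 0.00929 and 0.0021 in TKO), and with voom on recovered reads none did (adjusted p 0.222 and 0.109 in QKO, 0.255 and 0.0692 in TKO).

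Eya4 had -1.38 ± 0.39 in TKO at day 1 (adjusted p 0.0424) and -1.41 ± 0.39 in TKO at day 2 (adjusted p 0.0405). Both limma calls were lost with voom (adjusted p 0.0552 and 0.0523), with no filter (0.0737 and 0.0684) and with only the groups compared (0.113 and 0.191). Its TKO values without WT day 0 replicate 2 were -0.85 and -0.88. In QKO its values, which missed the threshold, were -1.02 (adjusted p 0.112) and -1.21 (adjusted p 0.0588).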

How the results depend on the processing

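Of 44 calls made for the 6 genes over the 22 contrasts, 26 held with any library left out, 21 held in every alternative, and 0 changed sign. Calls of Eya2, which passed the filter through the mutant day 0 libraries alone, are among these, so the tally does not describe the other genes alone. A mean of at least 5 RPKM leaves out Eya1 and Eya2, and the counts of called genes among the rest were 1 for TKO and 3 for QKO against WT at day 0, 0 for QKO against TKO at day 0, 2 for TKO and 3 for QKO at day 1 against day 0, and 2 each at day 2 against day 0. With it the change of the mutant difference was called for 1 gene in each mutant at each day. With only the groups compared in the fit the counts were 1 for each mutant at day 0, 0 for QKO against TKO at day 0, 2 for TKO against WT at day 1, and 2 for TKO at day 2 against day 1. There the change of the mutant difference was called for 1 gene in TKO at day 2, 1 in QKO at day 1 and 0 in QKO at day 2. With voom on recovered reads the counts were 0 for QKO against TKO at day 0, 0 for TKO against WT at day 1, and for the change of the mutant difference 1 in TKO at day 1, 0 in TKO at day 2, 1 in QKO at day 1 and 1 in QKO at day 2. QKO against TKO at day 0 also had 0 with a pseudocount of 0.1 or 0.5. The change in QKO at day 1 was called for 1 gene with a pseudocount of 0.1, with no filter, with quantile normalization and with median-ratio scaling, and the change in TKO at day 2 for 1 gene with no filter. With the length trend removed it was called for 4 genes in QKO at day 2. Between day 1 and day 2 in WT 1 gene was called with quantile normalization, and 1 likewise after length correction. Under the settings used in the report these counts were 3, 5, 1, 4, 5, 4 and 4 in the order of the filter sentence above, 1 for TKO against WT at day 1, 0 between day 1 and day 2, and 3 in TKO and 2 in QKO for the change of the mutant difference. The cause of these moves was not tested, other than the 2 genes that the stricter filter leaves out. Eya2 is counted wherever it was fitted, and the share of all genes called under each setting is not given here. The counts therefore do not tell a move of the 6 genes from a move in all calls.

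With each library left out in turn, the counts ran from 1 to 5 for TKO and 2 to 6 for QKO against WT at day 0, 0 to 1 for QKO against TKO at day 0, 0 to 1 for TKO and for QKO against WT at day 1, 0 to 1 for QKO against WT at day 2, and 3 to 5 for QKO at day 1 against day 0. For the change of the mutant difference they ran from 2 to 4 in TKO at day 1, 1 to 5 in TKO at day 2, 1 to 4 in QKO at day 1 and 1 to 5 in QKO at day 2. Eya3 at day 2 against day 0 in WT, at 0.31 and not called, ran from -0.01 without WT day 0 replicate 2 to 0.64 without WT day 0 replicate 1. A lone library left in a group is taken to vary like the other groups. The counts with a library left out also include Eya2 and stand without the share of all genes called in each fit. Median-ratio scaling moved 19 of the 54 group means by more than the spread of their 2 libraries.

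The replicate number was not taken as a pairing, though same-numbered libraries of some groups deviated together (r up to 0.55). The replicate block is 1 term shared by all groups, so it cannot show a pairing of days within a genotype. With the replicate block the counts were unchanged but for WT at day 1 against day 0, where 4 genes were called, against 3 without it.

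The data are limited by 2 libraries per group of unstated origin, and low read numbers for Eya2 outside the mutant day 0 libraries (14 to 76 reads).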
